A study of Homo sapiens with 2 samples.

Results

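The genes described here are 7 liver plasma protein genes, MBL2, C1S, CFB, SERPING1, C4BPA, A2M and FGG, in the Hep3B cell line with and without knockdown of caveolin-1. They were taken as a group of complement and coagulation genes from the authors' deposited tables of differing probe sets. They make up 7 of the 190 genes that these tables name by 1 symbol. The group need not hold every such gene, and SERPINE2, which encodes a thrombin inhibitor, was in the lower table. The tables list 244 probe sets, which are those past 2-fold among 54613 on the array. Each of the 7 genes had 1 listed probe set, and all 7 were in the table of higher probe sets. The members were chosen by the measured shCav1 minus shCtl difference itself, so the direction and the size of these differences are a description and no test of them was made.

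Complement is a cascade of plasma proteins, most of them secreted by hepatocytes, that marks and lyses microbes. The classical pathway starts when C1q binds antibody, the lectin pathway when a lectin binds microbial sugars, and the alternative pathway runs as an amplifying loop on surfaces. Coagulation is a parallel protease cascade of the plasma that ends in the conversion of fibrinogen to fibrin, and many members of both cascades belong to the acute phase proteins that the liver secretes under interleukin signals. The Hep3B line was established from a human hepatocellular carcinoma and secretes many of these proteins.

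The comparison rests on 2 Affymetrix HG-U133 Plus 2.0 arrays of total RNA, 1 from Hep3B carrying a caveolin-1 hairpin (shCav1) and 1 from Hep3B carrying a non-target hairpin (shCtl), both grown in DMEM-HG. Caveolin-1 is the coat protein of caveolae, small pits of the plasma membrane. The labels do not say whether each line was a clone or a pool, nor how the hairpin was delivered. The question of the design is which transcript levels differ with the knockdown. Since each group is 1 array, differences carry neither a p-value nor an SD between samples, and lower caveolin-1 and any further difference between the lines cannot be told apart. The log2 difference is shCav1 minus shCtl, and signals are on the linear scale, where the median of all probe sets on the shCtl array was 30.6.

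CAV1, the target of the hairpin, had a signal of 935 in shCtl and 61.8 in shCav1 at probe set 212097_at, which is 6.61% of shCtl. Its other listed probe set, 203065_s_at, went from 524 to 38.7. Probe sets were kept when the brighter array reached a signal of 30.7, which left 28128, and the robust SD of their log2 differences was 0.21. Added bacterial hybridization controls gave a higher signal in shCav1 at each of their 18 probe sets, several of which share a transcript, with log2 differences of 0.07 to 0.25 and a median of 0.14. In 4 of 5 pairs of control probe sets for human transcripts the 5' end was lower relative to the 3' end on the shCav1 array (log2 range -0.66 to 0.06), as it was in 8 of 9 pairs for added bacterial transcripts, which do not report the RNA of the cells. The part of RNA quality in the differences below was not tested. In whole cultures, a higher share of cells that make a transcript and more of it per cell cannot be told apart.

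All 7 genes passed the brightness filter, which takes the brighter array. MBL2, at 26.0 in shCtl and 54.99 in shCav1, passed it only through the array where it was chosen as higher. The 7 were between 2.03-fold and 3.60-fold higher in the shCav1 sample, with a median log2 difference of 1.32. The median over all 152 higher probe sets of the authors' deposited table was 1.27. Among the kept probe sets 0.501% were at least 2-fold higher and 0.299% at least 2-fold lower. Because the genes were drawn from the higher table, nothing is read from their count against this background. Within that table FGG held rank 28 of 152, CFB 46, SERPING1 50, A2M 70, C1S 81, MBL2 122 and C4BPA 145. The group thus ran from the upper part of the table to its lower edge.

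**Figure D1:**
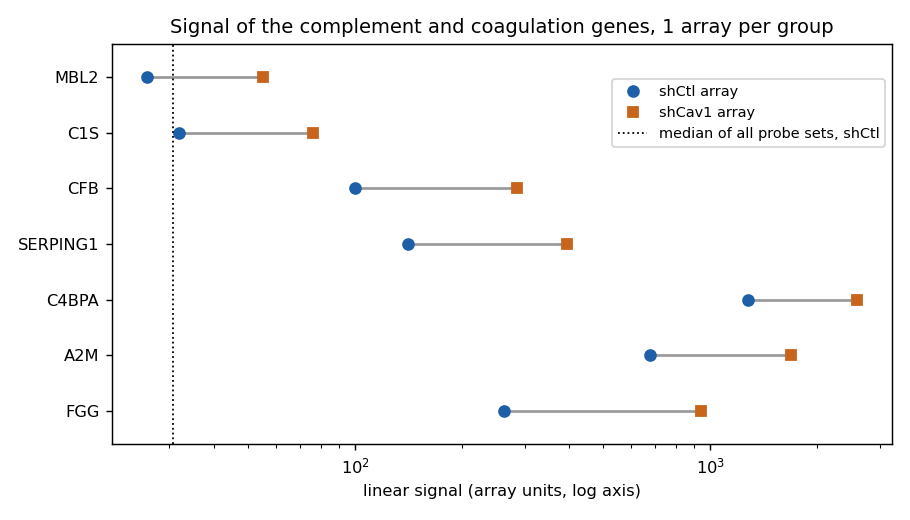
Linear signal of the 7 genes (log axis) on the shCtl array (circles) and the shCav1 array (squares), 1 array per group and so without error bars, with the median of all probe sets on the shCtl array dotted. All 7 squares lie to the right of their circles because the genes were drawn from the higher table, and MBL2 starts below the median of 30.6. Signals of different probe sets are not on a common scale of transcript abundance.

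MBL2 encodes mannose-binding lectin, the collagen-like lectin that recognises sugars on microbes and starts the lectin pathway. Its signal at probe set 207256_at was 26.0 in shCtl and 54.99 in shCav1, a log2 difference of 1.08 or 2.11-fold. MBL2 was the only member below the array median in shCtl. With 16 added to both signals its log2 difference was 0.76, which is 1.69-fold. The deposited alignment places this probe set on chromosome 10, minus strand, from 54526863 to 54531460 in band q21.1, in a genome build that the files do not name. It carries a percentage of 30.62 beside that alignment, against 91.51 to 99.94 for the other 6 members. The file does not define this percentage, and 9 of the listed probe sets have one below 50.

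C1S encodes the serine protease of the C1 complex that, once activated by C1r, cleaves C4 and C2. Its signal at probe set 208747_s_at was 31.992 in shCtl, just above the array median, and 76.1 in shCav1. The log2 difference was 1.25, or 2.38-fold, and it was 0.94 with 16 added to both signals, below 2-fold. Both genes of the initiating step thus started near the array median, and no background level was measured at their probe sets. C1S aligns to chromosome 12, plus strand, from 7168032 to 7178247 in band p13.31. In the gene order of GRCh38.p14 the next protein-coding gene is C1R, 9187 bases away, which encodes the partner protease of the same complex. No probe set listed under 1 symbol was that of C1R.

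CFB encodes factor B, the protease zymogen that binds C3b and forms the C3 convertase of the alternative pathway. Its signal at probe set 202357_s_at was 99.8 in shCtl and 286 in shCav1, a log2 difference of 1.52 or 2.86-fold. Among the 5 genes of complement proper (MBL2, C1S, CFB, SERPING1 and C4BPA) this was the largest difference. CFB aligns to chromosome 6, plus strand, from 31913958 to 31919860 in band p21.33. C2, which encodes the homologous protease of the classical and lectin pathways, ends 423 bases before CFB in GRCh38.p14. Neither C2 nor C3, whose product factor B acts on, was listed past 2-fold.

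SERPING1 encodes C1 inhibitor, the serpin that inactivates C1r, C1s and the lectin pathway proteases as well as plasma kallikrein. Its signal at probe set 200986_at was 141 in shCtl and 396 in shCav1, a log2 difference of 1.49 or 2.80-fold. C1S and the gene of its inhibitor were thus both higher on the same array, by 1.25 and 1.49 on the log2 scale. SERPING1 aligns to chromosome 11, plus strand, from 57365157 to 57382319 in band q12.1.

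C4BPA encodes the alpha chain of C4b-binding protein, a plasma cofactor for the breakdown of C4b by factor I. It was bright on both arrays, with a signal of 1274 in shCtl and 2589 in shCav1 at probe set 205654_at. Its log2 difference of 1.02, or 2.03-fold, was the smallest of the 7 and lay just inside the limit. C4BPA aligns to chromosome 1, plus strand, from 207277663 to 207318308 in band q32.2. Its neighbour C4BPB, 4240 bases away in GRCh38.p14, encodes the beta chain of the same protein and was not listed. CD55, CR2, CR1 and CD46, regulators and receptors of complement within 5 protein-coding genes of C4BPA, were not listed either. Only probe sets listed under 1 symbol were searched for these neighbours.

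A2M encodes alpha-2-macroglobulin, a large plasma inhibitor that traps proteases of all classes, those of coagulation and fibrinolysis included. Its signal at probe set 217757_at was 677 in shCtl and 1691 in shCav1, a log2 difference of 1.32 or 2.497-fold. With 16 added to both signals it was 1.30. A2M aligns to chromosome 12, minus strand, from 9220309 to 9268489 in band p13.31, the band that also holds C1S. The alignments of A2M and C1S are 2042062 bases apart, and by first alignment no other listed probe set was on that band. The 7 genes lie on 6 chromosomes, and none of the other 5 shared its band with a listed probe set.

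FGG encodes the gamma chain of fibrinogen, the precursor of the fibrin clot, which also bridges platelets through its C-terminal end. Its signal at probe set 219612_s_at was 263 in shCtl and 944 in shCav1. The log2 difference of 1.85, or 3.60-fold, was the largest of the 7, and FGG was the only member past 3-fold, where 0.149% of kept probe sets were that much higher and 0.0569% that much lower. FGG aligns to chromosome 4, minus strand, from 155525288 to 155533803 in band q31.3. Fibrinogen is assembled from 3 chains, FGA, FGB and FGG, whose genes form a cluster in which FGA is 13394 and FGB 31329 bases from FGG in GRCh38.p14. No listed probe set carried the FGA or FGB symbol. Differences below 2-fold in FGA and FGB remain possible, because the probe sets outside the tables have no gene names here.

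**Figure D2:**
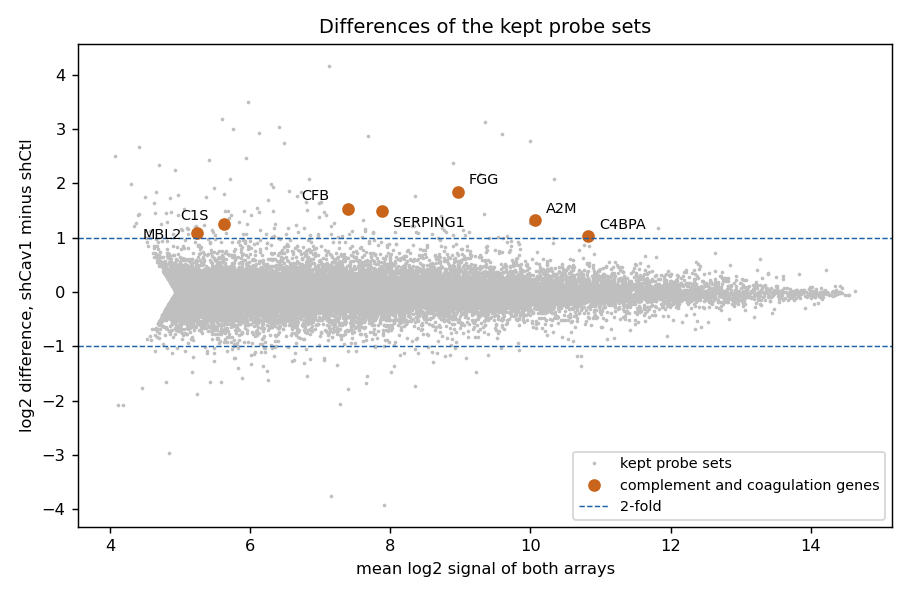
Log2 difference, shCav1 minus shCtl, of the 28128 kept probe sets (grey) against the mean log2 signal of both arrays, with the 7 genes in orange and 2-fold as dashed lines. The 7 genes were chosen as past 2-fold and so lie at or above the upper edge of the cloud. They run from its dim to its bright side, with FGG at 1.85 and C4BPA at 1.02.

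The spread of differences at the brightness of each gene puts these values in context. Of the 3194 kept probe sets within 0.5 log2 units of the mean signal of FGG, 4 differed upwards by as much as FGG, itself included, which is 0.125%. Of the 1380 at the brightness of C4BPA, 2 did so, or 0.145%, and the 99th percentile of their differences was 0.52. C4BPA had the smallest difference but lay at a brightness where 0.145% of probe sets were at least 2-fold higher, against 0.486% around MBL2. At the brightness of MBL2, 31 of 7204 probe sets differed upwards by as much, or 0.430%, and the 99th percentile was 0.69. For the other 4 genes the share was 0.100% around SERPING1, 0.116% around CFB, 0.197% around A2M and 0.248% around C1S. Because the genes were drawn from the higher table, each had to fall in the upper tail at its brightness. The shares are therefore no support for the differences. They rank the values on this pair of arrays and say nothing of how they would vary between cultures.

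The limit of 2-fold cut the distribution at no gap. The listed probe sets just inside it were those of IAH1 at a log2 difference of 1.0003 and of KCNJ3 at 1.006. That of KCNJ3, with signals of 14.5 in shCtl and 29.0 in shCav1, was too dim for the brightness filter. The nearest kept probe sets outside the limit, which have no gene name here, were at 0.999999, 0.998 and 0.989. Further probe sets of the 7 genes, if under 2-fold, have no name here either, so agreement between probe sets of a gene could not be examined.

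Which genes were past 2-fold depended on the setting. All 7 were past it after median centring, against 0.508% of kept probe sets higher and 0.295% lower, after removal of a loess curve, against 0.512% higher and 0.295% lower, and with no brightness filter, against 0.278% higher and 0.168% lower. Centred on the hybridization spikes, 5 of 7 remained past 2-fold, against 0.363% of kept probe sets higher and 0.505% lower. MBL2 came to 0.94 and C4BPA to 0.89. With the pseudocount of 16, 5 of 7 were past 2-fold, against 0.324% higher and 0.174% lower, and MBL2 and C1S were under it. A filter at the 75th percentile, a signal of 132, left 5 of 7, without MBL2 and C1S, against 0.559% higher and 0.304% lower. CFB, at 99.8 in shCtl and 286 in shCav1, passed that filter only through the shCav1 array, where it was chosen as higher. Its passing is therefore no support. FGG, CFB, SERPING1 and A2M were past 2-fold under every one of these settings, with log2 differences from 1.18 for A2M to 1.86 for FGG. All 7 differences stayed above 0 in each, which follows from the choice of genes past 2-fold and is no support. A pseudocount or a filter cannot change a sign, and the other shifts were small against the limit.

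**Figure D3:**
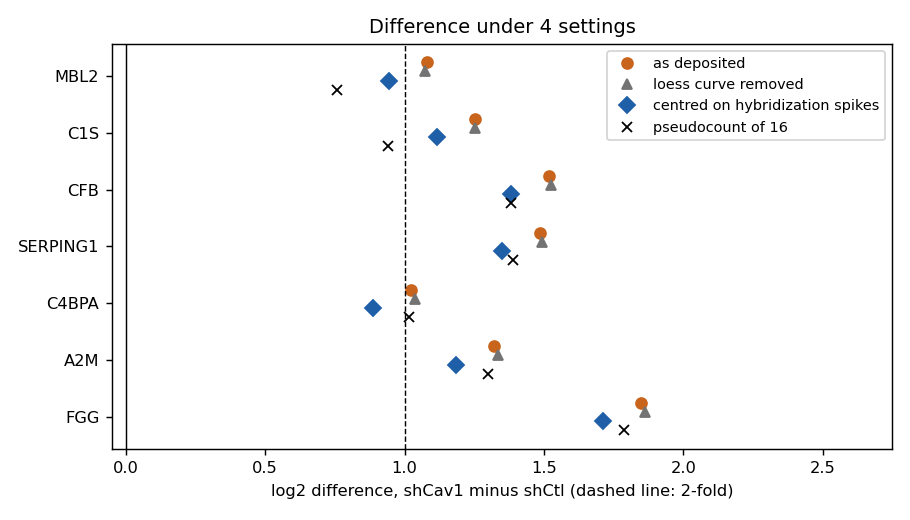
Log2 difference, shCav1 minus shCtl, of the 7 genes as deposited (circles), after removal of a loess curve (triangles), centred on the hybridization spikes (diamonds) and with a pseudocount of 16 (crosses), with 2-fold dashed. MBL2 and C4BPA fall under 2-fold when centred on the spikes, and MBL2 and C1S with the pseudocount.

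The wider pathway was examined through 6 lists of complement and coagulation genes with 83 different members. Besides the 7 genes, the other 76 had no probe set listed under 1 symbol in either direction. Listed probe sets that carry more than 1 symbol were not searched. Of the 16 genes that initiate the classical and lectin pathways 2 were higher, of the 11 of the alternative and terminal pathway 1, of the 15 complement regulators 2 and of the 7 complement receptors 0. Of the 17 coagulation factors and fibrinogen chains 1 was higher, and of the 17 anticoagulant and fibrinolysis genes 1. No gene of these lists was in the lower table under 1 symbol. SERPINE2, a thrombin inhibitor that these lists do not hold, was in the lower table. Over the whole array 0.278% of probe sets were listed as higher and 0.168% as lower. These counts follow from how the genes were chosen and describe how much of the pathway the 7 cover. The rest of both cascades was under 2-fold, without a gene name here, or on a probe set of more than 1 symbol.

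Further lists held few listed genes, and with 0.278% of probe sets higher and 0.168% lower over the array nothing is read from that. None of 17 other acute phase proteins, such as CRP, SAA1, HP and SERPINA3, had a probe set listed under 1 symbol. Among 20 genes that carry inflammatory signals to hepatocytes, 1 was listed. This was IL1RAP, which encodes the shared accessory subunit of the interleukin-1 receptor family, at 569 in shCtl and 1166 in shCav1, a log2 difference of 1.04. Centred on the spikes IL1RAP came to 0.90, under 2-fold. The 12 hepatocyte markers and the 29 markers of macrophages, stellate cells, endothelium and lymphocytes were not listed under 1 symbol. Their levels on the shCtl array could not be given because those probe sets have no gene name here. The liver identity of the line was therefore not checked against its defining markers.

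The deposited Gene Ontology annotation, which the choice by direction did not use, divided the 7 genes by function. All 7 were annotated to the extracellular region, a term held by 28 of the 106 higher and 3 of the 60 lower genes with component terms. Process terms were given for 86 higher and 57 lower genes. The term for the classical pathway of complement activation was held by 4 genes, MBL2, C1S, SERPING1 and C4BPA, and by no other gene of either table. Innate immune response was held by 6 higher genes, which were those 4, CFB and IL1RAP, and by 0 lower genes. In this annotation blood coagulation was held by FGG and SERPING1 alone, and the acute phase response by MBL2 and A2M alone. A missing term does not show that a gene lacks the role. Such terms were in view when the genes were grouped, so the overlap is a description.

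Proteases and their inhibitors were both represented. C1S and CFB were annotated to proteolysis, with 5 other higher genes, CPM, CTSS, PRSS35, PYCARD and TTN, and 0 lower genes. SERPING1 and A2M were annotated to inhibition of serine endopeptidases. That term was also held by SPINK1, a secreted trypsin inhibitor, higher by 4.16, and by SERPINE2, a serpin that inhibits thrombin and other proteases at cell surfaces, which was in the lower table at -1.18. The inhibitors among the listed genes were therefore not all on the higher side.

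Promoter sequence does not depend on the arrays, but the motifs were chosen after values and sequences were seen. The matches are therefore a description. RefSeq windows of GRCh38.p14, from 250 bases before to 50 bases after a gene's start, were matched for 4 of the 7 genes, FGG, CFB, C4BPA and MBL2, the last with 2 starts. The windows were searched on both strands for CTGGGAA, the core of interleukin-6 response elements, TTCNNNGAA for STAT factors, GAAANNGAA for interferon regulatory factors and GGGANTTCC for NF-kB. Further searches were for TTNNGNAAT for C/EBP factors, TGTTTAC for FOXA factors and TATAAA for the TATA box. The windows of FGG, CFB and C4BPA are shown because each holds a different set of matches, in capitals except for the TATA box. FGG is at chr4:154612607-154612906 on the minus strand, CFB at chr6:31945845-31946144 on the plus strand and C4BPA at chr1:207103983-207104282 on the plus strand.
FGG: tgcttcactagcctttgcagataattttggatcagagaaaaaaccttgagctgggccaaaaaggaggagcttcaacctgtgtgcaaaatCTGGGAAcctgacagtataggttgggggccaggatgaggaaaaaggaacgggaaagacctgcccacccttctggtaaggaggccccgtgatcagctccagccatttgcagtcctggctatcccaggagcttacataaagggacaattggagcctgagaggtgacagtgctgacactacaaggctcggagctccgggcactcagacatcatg
CFB: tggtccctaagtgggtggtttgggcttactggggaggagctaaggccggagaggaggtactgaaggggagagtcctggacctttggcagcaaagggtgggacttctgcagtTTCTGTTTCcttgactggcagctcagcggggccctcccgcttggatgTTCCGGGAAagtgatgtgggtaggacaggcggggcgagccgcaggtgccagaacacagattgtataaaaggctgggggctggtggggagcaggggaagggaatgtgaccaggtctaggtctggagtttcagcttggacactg
C4BPA: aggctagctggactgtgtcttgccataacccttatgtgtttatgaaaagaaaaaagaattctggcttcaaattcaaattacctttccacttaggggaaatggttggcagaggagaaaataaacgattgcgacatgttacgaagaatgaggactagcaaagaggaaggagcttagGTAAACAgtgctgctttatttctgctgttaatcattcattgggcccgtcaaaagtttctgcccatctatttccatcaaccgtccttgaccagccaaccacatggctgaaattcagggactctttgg

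The FGG window held 1 match, CTGGGAA beginning 161 bases before the start, and 13.1% of the 27305 genes with a window held such a match. The CFB window held the interferon regulatory factor motif on the minus strand from -139, found in 9.86%, and the STAT motif from -92, found in 9.38%. It was also the only member window with TATAAA, at -30, which 14.0% of genes had. The C4BPA window held a FOXA motif on the minus strand from -76, found in 4.19% of genes. The outer MBL2 window, around the outermost RefSeq start, held a STAT motif from -136 and a C/EBP motif from -244, and the inner MBL2 window a FOXA motif from -141. NF-kB matches were found in 0 of the 4 genes and in 2.23% of all genes.

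No motif was shared by all 4 genes. STAT matches were in 2 of the 4 (CFB and MBL2) and FOXA matches in 2 (C4BPA and MBL2). Among the 89 other higher genes with a window, 14.6% held the STAT motif and 1.12% the FOXA motif. Among the 55 lower genes these shares were 7.27% and 1.82%. A match is a run of letters and not evidence of binding, and these shares carry no test.

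**Figure D4:**
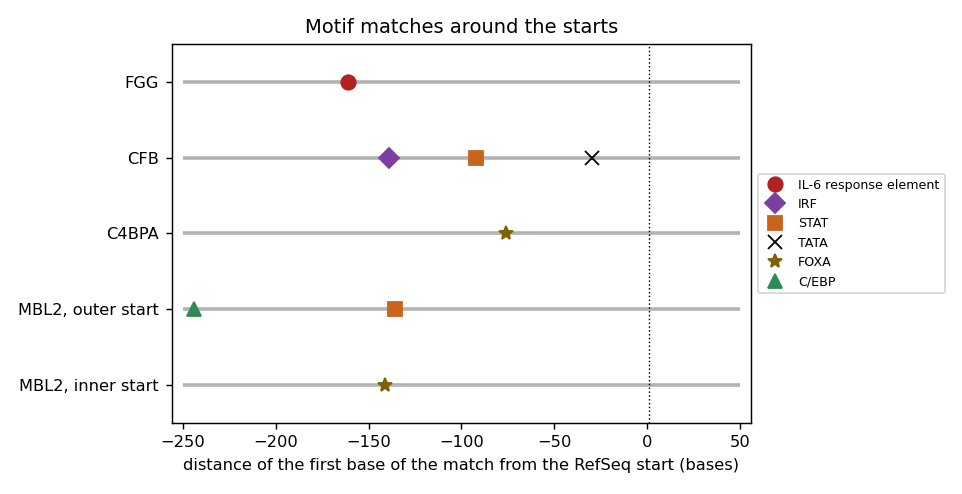
Motif matches in the RefSeq windows of FGG, CFB, C4BPA and both MBL2 starts, by distance in bases of the leftmost base of the match from the start (dotted line at the start). Each grey bar runs from 250 bases before to 50 after the start, and no motif appears in every gene.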

How the data were processed

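Expression was measured in 1 sample of Hep3B shCav1 and 1 of Hep3B shCtl, grouped by title. RMA is the tool named, per the submitters' processing notes. No source used here names its version, the array annotation or the build of the deposited alignments, so these coordinates were not combined with GRCh38.p14. Series values were deposited on the log2 scale, centred by the authors for each probe set between the arrays (largest row sum 1e-06). Their difference matched the authors' deposited log2 difference for all 244 listed probe sets within 2e-07, which settled scale and direction. The authors' deposited tables also give a linear fold (a ratio of larger over smaller signal) and a signed fold score, which was not used. Linear signal intensity was read from the CTL column of the authors' deposited signal table, whose name matches shCtl, and 1 column that matches no label was not used. shCav1 signals were computed as the shCtl signal times the fold, which takes both as 1 scale.

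The filter, applied without the 62 control probe sets, required the brighter array to reach the median of all values. Gene names came from the deposited tables and covered listed probe sets only, and Entrez identifiers linked them to RefSeq. List genes, neighbours and annotation terms were counted only among the 218 listed probe sets named by 1 symbol. Each gene of the group had 1 listed probe set, so its mean over probe sets is the same value. Named genes are the 7 members, genes of 8 pathway lists with 120 members that the tables hold, and the probe sets at the limit. SPINK1, SERPINE2, the other genes sharing annotation terms and the motifs were chosen after values and sequences were seen. The members and lists were chosen with earlier results of these data known. No test was run with 1 array per group, and the number of arrays limits the precision. Alternatives were median centring, spike centring, a loess curve (span 0.3), a pseudocount of 16, no filter, a filter at the 75th percentile, and limits of 1.5-fold and 3-fold. A further planned list is not reported here. The counting was tested on simulated data. Python 3.11.15, pandas 2.3.3, numpy 2.4.6 and statsmodels 0.14.6 were used.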

Additional observations from a re-analysis of the deposited data

How the results depend on the processing

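The 7 log2 differences moved by less than the robust SD of 0.21 under median centring, spike centring and a loess curve. With a pseudocount of 16, which shrinks dim differences by construction, only MBL2 at 0.76 and C1S at 0.94 moved by more. All 7 stayed above 0 throughout, which follows from the choice of genes past 2-fold and is no support. Median centring, loess and no filter each moved the 141 higher and the 84 lower probe sets by less than 1.5 times. Spike centring gave 102 higher and 142 lower, with 5 instead of 8 pathway list genes past the limit. The pseudocount gave 91 higher and 49 lower, and the filter at the 75th percentile, which leaves fewer probe sets, 79 and 43. The limit of 1.5-fold gave 552 and 578, or 1.96% and 2.05% of kept probe sets, and all 7 genes are past it by construction. No gene names exist for the added probe sets, so further genes of the lists could not be counted. The limit of 3-fold gave 42 and 16, with 1 member and 1 pathway list gene. No paired analysis was possible because there is 1 array per group. No background level was measured, so signal over background could not be given for MBL2 and C1S, and the lack of replicates limits every value.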
